A study of Homo sapiens with 4 samples.

Results

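RAB proteins are small GTPases that mark the membranes of the secretory and endocytic pathways. In the GTP-bound state each recruits effectors such as motors, tethers and fusion factors to its own compartment, exchange factors load the GTP and GTPase-activating proteins end the cycle. A prenyl tail anchors them in the membrane, and GDP dissociation inhibitors carry them back through the cytosol. In neurons, RAB proteins serve the release of synaptic vesicles and dense-core granules, the delivery of membrane to growing neurites and the traffic of endosomes along the axon.

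The members are the 61 genes, of 23576 rows in the deposited table, whose name is RAB followed by a number, with an optional letter and a further optional digit. Of these, 45 had a mean of the group values of at least 1 FPKM (fragments mapped, per unit of transcript length and of library size), and fold changes are given for those. The cells were SH-SY5Y, a human neuroblastoma line of sympathoadrenal origin, with 2 undifferentiated and 2 differentiated libraries. Undifferentiated cells (day 0) grew in medium with 10% fetal bovine serum. Differentiated cells (day 16) had received retinoic acid at 10 µM with 5% serum for 7 days and then brain-derived neurotrophic factor at 20 ng/mL without serum for 9 days. Time, serum, retinoic acid and the neurotrophin therefore changed together and cannot be told apart. The table holds 1 value per gene and group, so neither how far the libraries of a group differed nor how deep each was is known, and the labels do not say whether the libraries came from separate cultures. In bulk RNA, fewer cells with a transcript and less of it per cell cannot be told apart.

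The error of a log2 fold change is the standard error (SE) implied by the authors' statistic. A gene rose or fell where the authors' deposited table gives a q-value below 0.05. Over the 11169 tested genes with at least 1 FPKM and a usable statistic, the median log2 fold change was -0.62, so the typical gene was lower in differentiated cells. Each fold change was therefore also tested against that of the median gene, with the threshold again at 0.05 after adjustment. Of 12 noradrenergic neuroblastoma markers, 11 stood at 1 FPKM or more in undifferentiated and 10 in differentiated cells, while TH was listed at 0 in the former and at 0.202 FPKM in the latter. Schwann cell and glia markers reached 1 FPKM for 1 of 5 genes in each group, S100B, at 4.33 and 2.98 FPKM. GFAP and SOX10 were listed at 0 in undifferentiated cells. For fibroblasts the count was 4 of 6 in each group, with a summed level of 29.4 FPKM before and 27.3 FPKM after. LUM was the highest of these, at 12.5 and 18.0 FPKM, and COL1A1 was under 1 FPKM in both groups. Blood and endothelial markers reached 1 FPKM for 0 of 4 genes before and 1 of 4 after, and epithelial markers for 0 of 4 in each group. The part of other cell types in the results was not tested.

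Differentiated cells had more RNA of RAB27B, RAB6B and RAB3B, which serve granule release, Golgi traffic in neurons and synaptic exocytosis. They had less of 8 widely expressed members, led by RAB8A of the Golgi-to-surface route and RAB31 of the route between Golgi and endosomes. Most members did not pass the test in either direction. Among these 45 genes, 2 were called higher in the authors' deposited table, against 2.2% of all tested genes, and 8 lower, which is 17.8% of the members against 31.4% of all tested genes. In either direction 22.2% of the members were called in the authors' deposited table, against 33.6% of all tested genes. The median log2 fold change of the 45 members was -0.24, with quartiles of -0.71 and 0.07. Below 0 were 31 of the 45 values, beside 84.0% of those of all tested genes with a usable statistic. Relative to the median gene the median of the members was 0.38, and 33 of 45 members lay on the higher side. In the test against the median gene 4 members (8.89%) lay above it, against 5.64% of all genes, and 0 lay below it, against 4.56%. The 4 were RAB27B, RAB6B, RAB39B and RAB2B. The sign of the median over all members depends on the scaling, as it was positive when both groups were scaled to an equal sum, to equal quantiles or to the median gene. The 10 called members kept their sign under all 3 of these scalings. All 3 move the median gene upward, so this is no check on the 2 members that rose. Of the 8 that fell, RAB14 came closest to 0, at -0.015 under equal sums, with RAB12 at -0.072.

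**Figure D1:**
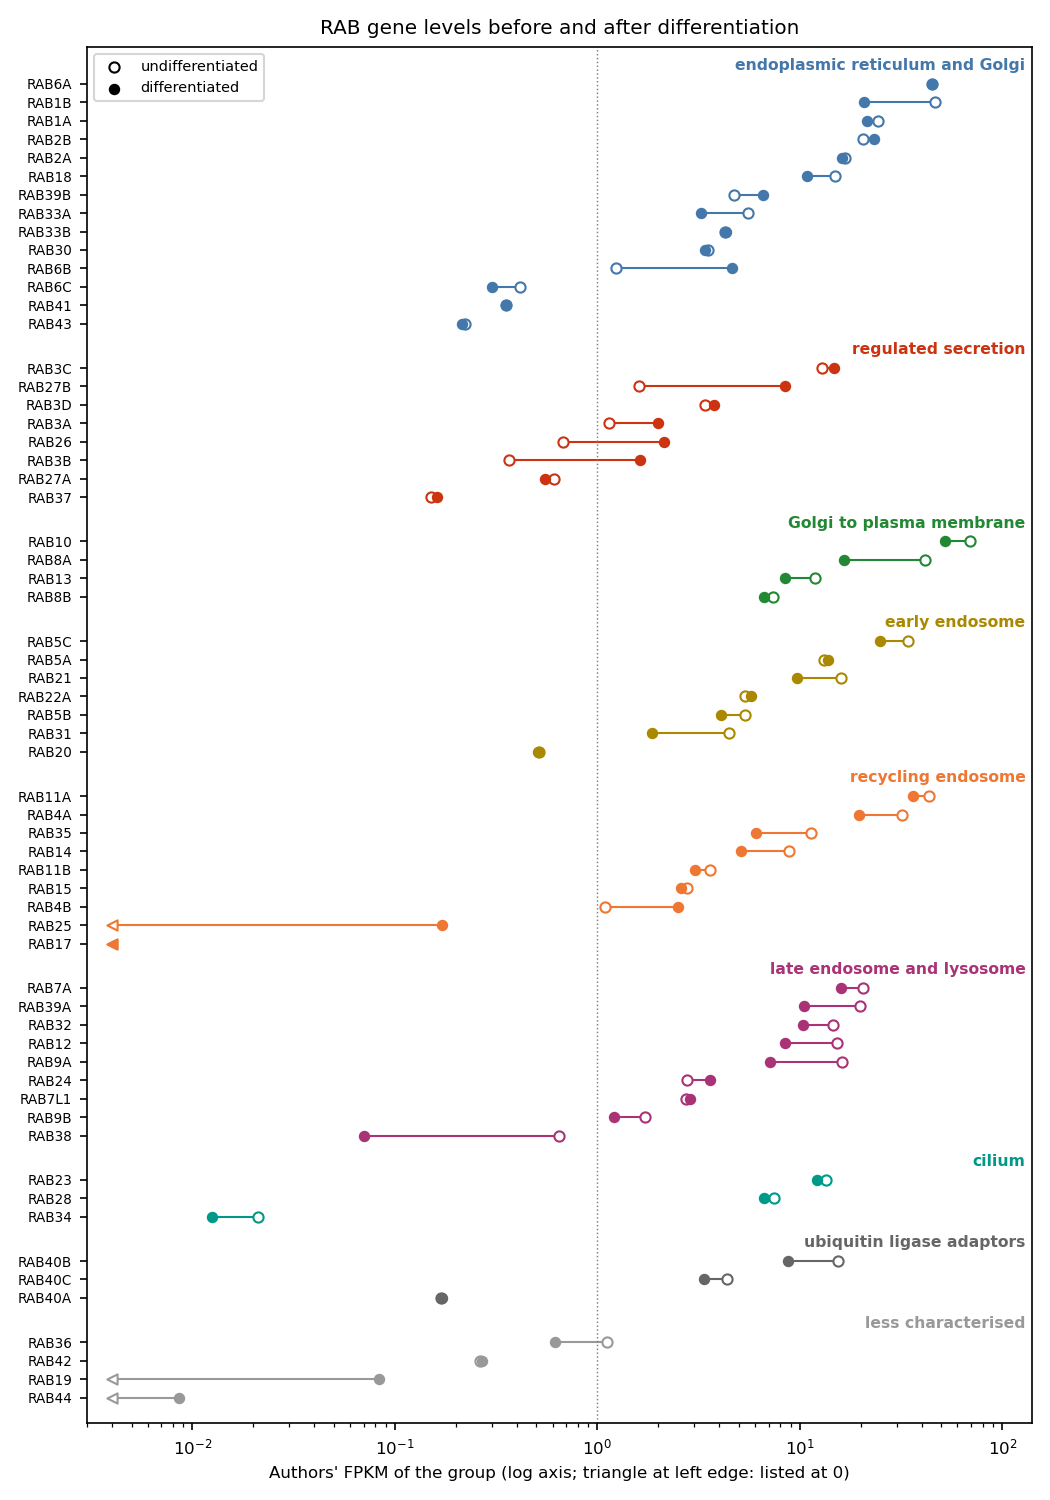
Authors' FPKM of each of the 61 RAB genes (log axis) in undifferentiated (open) and differentiated cells (filled), grouped by trafficking step and ordered by mean level; triangles at the left edge mark values listed at 0, and the dotted line 1 FPKM. RAB10 had the highest level, 69.5 and 52.0 FPKM.

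RAB27B, which docks and releases secretory granules and exosomes, showed the largest rise of any member in the fold set. Its level went from 1.60 to 8.48 FPKM, a 5.31-fold difference. The log2 fold change was 2.41 ± 0.30 (implied SE), with q = 6.40e-13 in the authors' deposited table and an adjusted p of 2.56e-20 against the median gene. The gene lies at chromosome 18, 52495708 to 52562747 (hg19). RAB6B, the form of RAB6 found mainly in neurons, which works in traffic at the Golgi, went from 1.24 to 4.60 FPKM. Its log2 fold change was 1.89 ± 0.37, with q = 7.20e-06 in the authors' deposited table and an adjusted p of 1.34e-09 against the median gene. It lies at chromosome 3, 133543080 to 133614691 (hg19). RAB3B, a member of the RAB3 group that acts in vesicle release, went from 0.365 to 1.62 FPKM at chromosome 1, 52373628 to 52456436 (hg19). It rose 4.44-fold, or by 2.15 ± 0.38 on the log2 scale (q = 4.87e-07 in the authors' deposited table). Its mean of 0.993 FPKM put it just outside the fold set, and it is not among the 45. Without a filter on low values it lay above the median gene (adjusted p = 1.24e-10). The nearest members inside the limit were RAB26 with a mean of 1.40 FPKM and RAB9B with 1.47 FPKM, and the next outside it was RAB36 with 0.869 FPKM.

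The promoters of these 3 genes and of RAB8A and RAB1B, the most significant falls, are shown so that the sequences before the starts of genes that moved apart can be compared. Each is the 250 bases before an annotated start, from RefSeq on GRCh38.p14, 5′ to 3′ on the strand of the gene. Capitals mark GGGCGG (the GC box) and CCAAT (the CCAAT box), each on either strand.
RAB27B, chr18:54717607-54717856, plus strand: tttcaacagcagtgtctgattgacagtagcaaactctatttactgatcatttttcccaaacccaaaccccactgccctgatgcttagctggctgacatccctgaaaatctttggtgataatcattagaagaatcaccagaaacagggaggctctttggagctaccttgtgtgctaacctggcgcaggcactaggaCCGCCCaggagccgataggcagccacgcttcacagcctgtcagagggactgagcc
RAB27B, chr18:54828227-54828476, plus strand: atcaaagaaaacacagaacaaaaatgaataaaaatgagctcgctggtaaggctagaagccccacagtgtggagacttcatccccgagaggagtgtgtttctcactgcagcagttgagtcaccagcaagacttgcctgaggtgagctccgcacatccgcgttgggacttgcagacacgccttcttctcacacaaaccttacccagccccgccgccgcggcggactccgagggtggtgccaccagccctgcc
RAB3B, chr1:51990701-51990950, minus strand: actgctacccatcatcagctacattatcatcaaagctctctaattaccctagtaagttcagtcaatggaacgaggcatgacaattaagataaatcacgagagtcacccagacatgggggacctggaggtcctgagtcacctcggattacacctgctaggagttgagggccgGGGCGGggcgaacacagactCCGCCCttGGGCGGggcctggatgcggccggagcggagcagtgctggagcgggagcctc
RAB6B, chr3:133895848-133896097, minus strand: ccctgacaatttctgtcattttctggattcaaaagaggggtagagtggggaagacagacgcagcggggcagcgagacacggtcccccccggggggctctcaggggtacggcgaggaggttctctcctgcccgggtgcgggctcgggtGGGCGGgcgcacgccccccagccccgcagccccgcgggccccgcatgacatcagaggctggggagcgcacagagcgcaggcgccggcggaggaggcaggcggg
RAB8A, chr19:16111639-16111888, plus strand: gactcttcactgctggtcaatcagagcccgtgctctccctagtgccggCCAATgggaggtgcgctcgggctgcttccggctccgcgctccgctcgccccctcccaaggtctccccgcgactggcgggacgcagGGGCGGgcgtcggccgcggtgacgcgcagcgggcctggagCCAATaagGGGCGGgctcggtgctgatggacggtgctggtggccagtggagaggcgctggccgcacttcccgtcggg
RAB1B, chr11:66268389-66268638, plus strand: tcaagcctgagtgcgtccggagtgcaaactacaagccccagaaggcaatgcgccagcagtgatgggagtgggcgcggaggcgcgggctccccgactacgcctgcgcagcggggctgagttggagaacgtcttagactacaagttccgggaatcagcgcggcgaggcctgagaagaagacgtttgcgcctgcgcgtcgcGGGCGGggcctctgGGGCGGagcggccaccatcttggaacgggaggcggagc

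The promoters of RAB8A and RAB1B hold more G and C than those of RAB27B and RAB3B. The share of G and C was 72.4% for RAB8A and 66.8% for RAB1B, but 50.4% and 56.0% for the RAB27B promoters and 56.8% for RAB3B, while RAB6B had 71.2%. Other members that fell and have a listed promoter ranged from 63.6% (RAB9A) to 82.0% (RAB31). Among members not called, RAB30 had a promoter at 50.0% and RAB22A one at 80.8%. CG dinucleotides numbered 28 in RAB8A and 27 in RAB1B, 4 and 12 in the RAB27B promoters, 12 in RAB3B and 23 in RAB6B. The table gives promoters for 48 of the 61 members, 68 in all, some of which overlap. Their median share of G and C was 64.6%, against 58.0% over all 35116 promoters. GGGCGG was found in 73.5% of the RAB promoters and in 42.6% of all promoters. CCAAT was found in 27.9% of RAB promoters and 32.0% of all. The nuclear receptor half-site AGGTCA was found in 7.35% of RAB promoters and 12.1% of all, the TATA box TATAAA in 5.88% and 10.7%, and the cyclic AMP response element TGACGTCA in 1.47% and 1.65%. Both strands were searched, and in the promoters shown no GGGCGG overlaps a CCAAT. None of the promoters shown held the half-site, the TATA box or the response element. RAB6B has a further annotated start whose promoter overlaps the one shown. Which start the cells used cannot be read from a value per gene.

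Of the 8 genes of regulated secretion, 5 had at least 1 FPKM, and 1 of them, RAB27B, rose in the authors' deposited table while 0 fell. This 1 gene was 20% of the 5, beside 2.2% higher and 31.4% lower among all tested genes. The median log2 fold change of the 5 was 0.80. It describes these 5 genes and not the whole group, since RAB26 passed the limit only through its level in differentiated cells and RAB27A, with a fold change below 0, did not pass it. RAB3C, a vesicle-associated member of the RAB3 group, was the most abundant, at 12.8 FPKM before and 14.7 FPKM after (log2 fold change 0.19 ± 0.38). RAB3D, found on secretory granules, had the lowest fold change of the 5, from 3.39 to 3.75 FPKM (0.15 ± 0.37). RAB26, also linked to secretory granules, stood at 0.677 and 2.12 FPKM, which is 1.65 ± 0.83 on the log2 scale (q = 0.115 in the authors' deposited table). RAB3A, the main RAB of synaptic vesicles, stood at 1.14 and 1.99 FPKM with an interval from -0.68 to 2.29 that includes 0. RAB27A, the close relative of RAB27B, stood at 0.612 and 0.548 FPKM, and RAB37, another secretory granule member, at 0.150 and 0.160 FPKM. The group's share of the summed FPKM of all RAB genes was 3.16% in undifferentiated and 6.59% in differentiated cells, on the FPKM values as deposited.

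**Figure D2:**
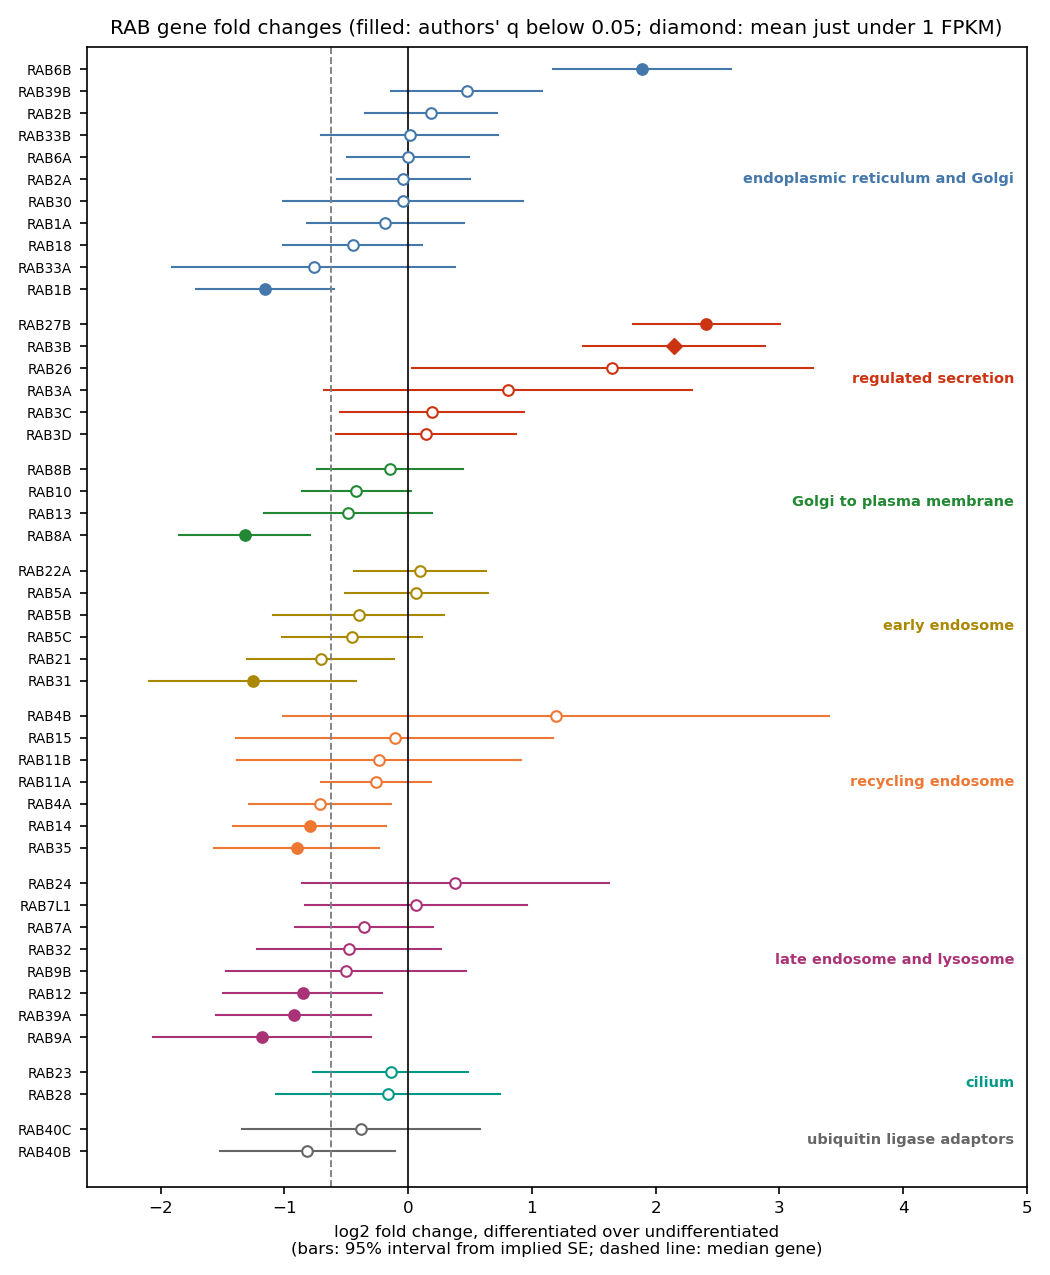
Log2 fold change of the 45 RAB genes of the fold set and of RAB3B (diamond) by trafficking step, with 95% intervals from the implied SE; filled points have q below 0.05 in the authors' deposited table, the solid line is 0 and the dashed line the median gene at -0.62. The 6 secretion genes shown lie to the right of 0. The 4 genes of the Golgi-to-surface route lie to its left, as do 84.0% of all tested genes with a usable statistic. Of the secretion genes, RAB3B is under the limit of 1 FPKM and RAB26 passed it only through differentiated cells. RAB27A, with a fold change below 0, is under the limit and not shown.

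Of 14 genes of the endoplasmic reticulum and Golgi, 11 had at least 1 FPKM, with RAB6B called higher and RAB1B called lower in the authors' deposited table. Each call was 9.09% of the 11, beside 2.2% higher and 31.4% lower among all tested genes. The median log2 fold change of the 11 was -0.038, and 9 of 11 lay over the median gene. RAB1B, which moves cargo from the endoplasmic reticulum to the Golgi, fell from 46.5 to 20.8 FPKM (-1.16 ± 0.28, q = 0.000518 in the authors' deposited table). Against the median gene it was not called (adjusted p = 0.271). RAB6A, the general form of RAB6, was the most abundant, at 45.0 FPKM before and 44.9 FPKM after. RAB2B, of the early secretory route, stood at 20.5 and 23.3 FPKM, a log2 fold change of 0.19 ± 0.27 that was not called against 0 but lay above the median gene (adjusted p = 0.0340). RAB39B, a neuronal member mutated in X-linked intellectual disability with parkinsonism, stood at 4.73 and 6.57 FPKM (0.47 ± 0.31). It too lay above the median gene (adjusted p = 0.00778) and was not called in the authors' deposited table (q = 0.242). RAB1A, RAB2A, RAB18, RAB30, RAB33A and RAB33B were not called by either test, with fold changes from -0.76 to 0.013. RAB6C, RAB41 and RAB43 stayed at or under 0.414 FPKM in both groups.

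All 4 genes of the route from Golgi to plasma membrane had fold changes below 0, and 1 fell in the authors' deposited table. That was 25% of the group, against 31.4% of all tested genes. RAB8A, which carries membrane from the Golgi to the cell surface and the cilium, fell from 41.5 to 16.6 FPKM at chromosome 19, 16222490 to 16244445 (hg19). The change of -1.32 ± 0.27 on the log2 scale was the lowest of the 45 (q = 2.40e-05 in the authors' deposited table), and its adjusted p against the median gene was 0.0804. Its relative RAB8B stood at 7.34 and 6.62 FPKM (-0.15 ± 0.30). RAB10, which brings vesicles to the surface and to growing axons, was the most abundant RAB gene in both groups. It stood at 69.5 and 52.0 FPKM (-0.42 ± 0.22), which was not called (q = 0.143 in the authors' deposited table). RAB13, known from cell junctions, stood at 11.9 and 8.47 FPKM.

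The early endosome group had 6 of 7 genes at 1 FPKM or more, of which 1 fell and 0 rose in the authors' deposited table. The share that fell was 16.7%, against 31.4% of all tested genes. RAB31, which links the trans-Golgi network to endosomes, fell from 4.44 to 1.86 FPKM (-1.26 ± 0.43, q = 0.0155 in the authors' deposited table). Its close relative RAB22A had the highest fold change of the group, from 5.35 to 5.71 FPKM (0.093 ± 0.27). Of the RAB5 genes, which control fusion of early endosomes, RAB5C was the most abundant at 34.1 and 24.9 FPKM, ahead of RAB5A at 13.1 and 13.7 FPKM and RAB5B at 5.37 and 4.07 FPKM. None of the RAB5 genes was called. RAB21, known from integrin traffic, stood at 15.9 and 9.73 FPKM (q = 0.0617 in the authors' deposited table), and RAB20 at 0.512 and 0.509 FPKM. The group median was -0.43.

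Of 9 recycling endosome genes 7 had at least 1 FPKM, and 2 fell in the authors' deposited table. That share of 28.6% was near the 31.4% lower among all tested genes. RAB35, which recycles cargo to the plasma membrane, fell from 11.3 to 6.07 FPKM (-0.90 ± 0.34, q = 0.0314 in the authors' deposited table). RAB14, which acts between the Golgi and endosomes, fell from 8.88 to 5.11 FPKM (-0.80 ± 0.31, q = 0.0394 in the authors' deposited table). RAB11A, the main RAB of the recycling endosome, was the most abundant, at 43.5 and 36.3 FPKM (-0.26 ± 0.23). RAB4A, of fast recycling, went from 32.0 to 19.6 FPKM and just missed the threshold with q = 0.0502 in the authors' deposited table. RAB4B had the highest fold change, 1.20, with an SE of 1.13 and levels of 1.09 and 2.49 FPKM. RAB11B and RAB15 had fold changes of -0.24 and -0.11, RAB25 was listed at 0 in undifferentiated and at 0.171 FPKM in differentiated cells, and RAB17 was listed at 0 in both. The group median of -0.26 lay 0.36 over the median gene, but fell to the lower side, at -0.062 and -0.17, with a filter at 5 FPKM and with genes of overlapping listed loci left out.

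In the late endosome and lysosome group, 8 of 9 genes had at least 1 FPKM, 3 fell and 0 rose in the authors' deposited table. These falls were 37.5% of the 8 genes, near the 31.4% of all tested genes. RAB9A, which returns receptors from late endosomes to the Golgi, fell from 16.1 to 7.11 FPKM (-1.18 ± 0.45, q = 0.0327 in the authors' deposited table). RAB39A fell from 19.9 to 10.5 FPKM (-0.93 ± 0.32, q = 0.0176 in the authors' deposited table), and RAB12, which acts in the degradation of endosomal cargo, from 15.2 to 8.40 FPKM (-0.85 ± 0.33, q = 0.0347). None of these 3 lay apart from the median gene, with adjusted p from 0.565 to 0.799. RAB7A, the main RAB of late endosomes and lysosomes, was the most abundant, at 20.5 and 16.0 FPKM (-0.36 ± 0.28). RAB24, linked to autophagy, had the highest fold change, 0.38 ± 0.63. RAB38, which works with RAB32 in melanosome formation, was tested at 0.646 and 0.0700 FPKM (q = 0.0671 in the authors' deposited table), while RAB32 stood at 14.5 and 10.4 FPKM. RAB7L1, now named RAB29 and linked to the kinase LRRK2, stood at 2.73 and 2.85 FPKM, and RAB9B at 1.72 and 1.21 FPKM. The group median was -0.49.

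Among the ciliary genes, RAB23, a negative regulator of Hedgehog signalling, stood at 13.5 and 12.2 FPKM and RAB28 at 7.47 and 6.67 FPKM, with neither called. RAB34 was at 0.0211 and 0.0125 FPKM. RAB40B and RAB40C, which join cullin-based ubiquitin ligases, stood at 15.3 and 8.71 FPKM and at 4.36 and 3.35 FPKM, with q = 0.0695 for RAB40B in the authors' deposited table. RAB40A and the less characterised RAB19, RAB36, RAB42 and RAB44 had a mean under 1 FPKM. Of all 61 rows the authors tested 50, and 5 of the 16 members under the limit were among them.

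Members known to be enriched in neurons can be set beside the others. The list, taken from general knowledge of brain expression, holds RAB3A, RAB3B, RAB3C, RAB6B, RAB9B, RAB15, RAB26, RAB27B, RAB33A and RAB39B. Of these 10 genes 9 had at least 1 FPKM, of which the authors' deposited table called 2 higher and 0 lower, and 3 lay above the median gene. Of the 36 other members in the fold set, 8 (22.2%) were lower and 0 higher by the calls of the authors' deposited table. Among all tested genes 31.4% were lower and 2.2% higher, so falls were no more frequent in these other members. Of the 36, 1 (RAB2B) lay above the median gene. The medians were 0.47, with RAB26 in and RAB3B out by the limit, and -0.37, beside -0.62 over all genes, and no test of this difference was made because the result was known when the list was written. The neuron-enriched genes held 4.96% of the summed RAB FPKM in undifferentiated and 9.31% in differentiated cells. RAB33A (5.53 and 3.26 FPKM), RAB9B and RAB15 were the members of the list with fold changes below 0. The RAB proteins known as substrates of LRRK2 gave 12 measured genes, of which 0 were higher and 3 (25%) lower by the authors' deposited table, near the 31.4% of all tested genes, and a median of -0.27.

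Close relatives within a family were compared by the difference of their log2 fold changes. In 13 families or close groups there were 17 pairs with both genes at 1 FPKM or more, and in 5 the 95% interval of the difference did not include 0. These intervals are not adjusted for the number of pairs. RAB6B exceeded RAB6A by 1.89 (interval 1.02 to 2.77), and its share of the RAB6 family went from 2.66% to 9.24%. RAB39B exceeded RAB39A by 1.40 (0.52 to 2.27), with a share of 19.2% before and 38.5% after. RAB8B exceeded RAB8A by 1.17 (0.38 to 1.97), with a share of 15.0% before and 28.5% after. RAB31 was below RAB22A by -1.35 (-2.34 to -0.36), and RAB1B below RAB1A by -0.97 (-1.82 to -0.13). RAB1B thus held 65.7% of the RAB1 pair in undifferentiated and 49.3% in differentiated cells. Among pairs whose interval included 0, RAB2B and RAB2A differed by 0.22 (-0.53 to 0.98), and RAB11B and RAB11A by 0.020 (-1.21 to 1.25). In the RAB27 pair, RAB27B held 72.3% of the sum before and 93.9% after. RAB3C held 72.4% and 66.6% of the RAB3 sum, and RAB3B 2.06% and 7.36%.

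**Figure D3:**
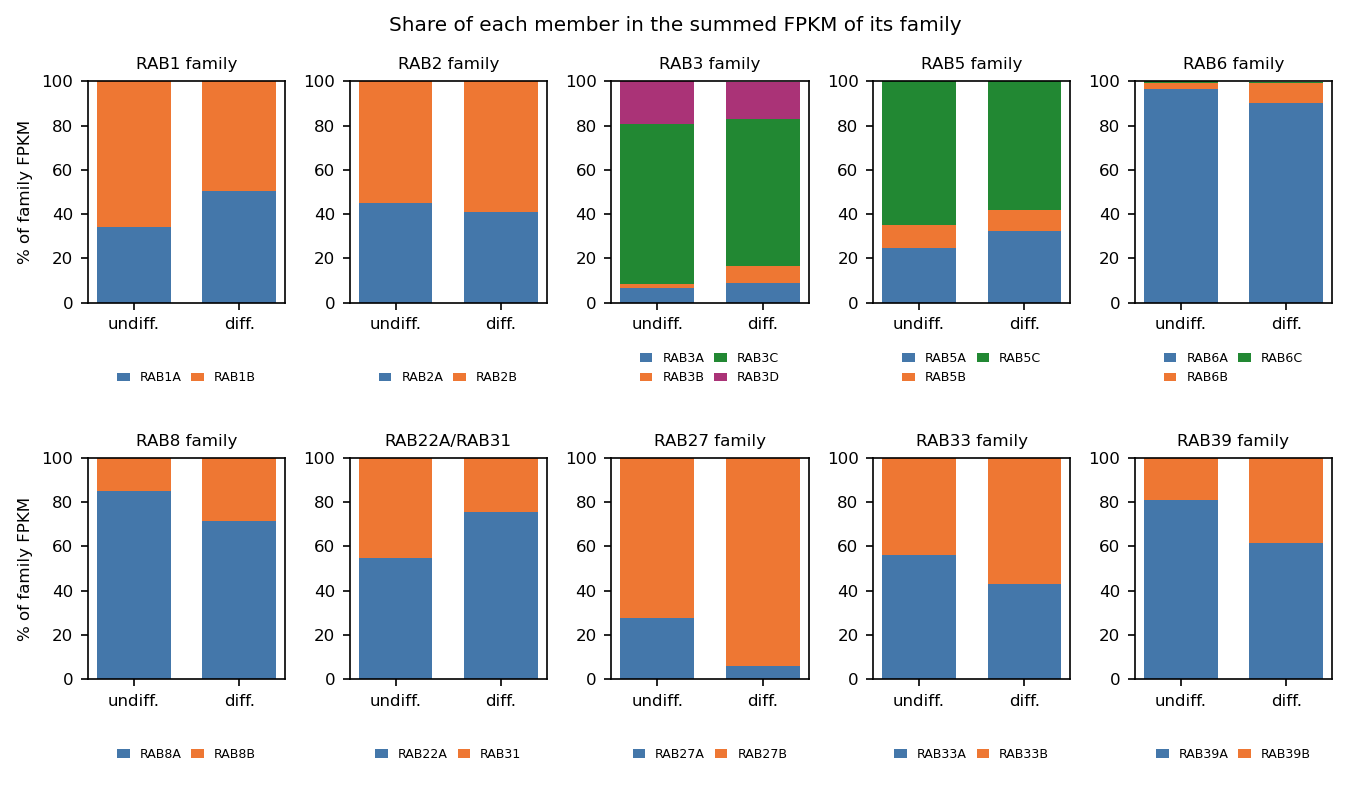
Share of each member in the summed FPKM of its family, in percent, for 10 RAB families or close pairs in undifferentiated and differentiated cells, from 1 value per gene and group and with no error bars. The share of RAB27B went from 72.3% to 93.9%, that of RAB39B from 19.2% to 38.5% and that of RAB8B from 15.0% to 28.5%.

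Fragments can be shared between genes where transcripts overlap or copies are near-identical, so the longest coding transcript of each member in GENCODE release 29 was searched for 50-base windows that also occur in transcripts of another gene. In 33 of 61 members there were none, and in 9 the share passed 10%. For RAB27B, RAB6B, RAB9A, RAB31, RAB35, RAB39A, RAB12 and RAB14 it was 0, for RAB3B 2.77%, for RAB1B 4.44% and for RAB8A 5.69%. RAB6A shared 21.6% of its windows, most of them with the retrocopy RAB6C, and RAB6C shared 55.8%. The levels of RAB43 (90.9% of windows, chiefly with the readthrough gene ISY1-RAB43), RAB4B (66.0%, with RAB4B-EGLN2) and RAB24 (60.3%, with MXD3) are uncertain for this reason, as are those of RAB13 (38.3%), RAB5C (36.2%), RAB4A (20.5%) and RAB40A (15.9%). The listed loci of 12 of the 61 members overlap that of another row, among them RAB15, RAB1A, RAB3D and RAB5A.

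Of 136 genes listed as regulators and effectors of RAB proteins, all had a row, 4 of them under an older name, and 110 had at least 1 FPKM. Of these 110, 3 (2.73%) were higher and 26 (23.6%) lower by the calls of the authors' deposited table, against 2.2% and 31.4% of all tested genes, so the list does not stand out by these counts. Their median was -0.47, and the test against the median gene placed 9 (8.18%) above it and 2 (1.82%) below, against 5.64% and 4.56% of all genes. The list covers genes that deliver RAB proteins to membranes, exchange factors, GTPase-activating proteins and effectors, with 8, 36, 32 and 34 genes at 1 FPKM or more. In that order, the authors' deposited table called 1, 0, 0 and 2 of them higher and 3, 4, 6 and 13 lower, which is 37.5%, 11.1%, 18.8% and 38.2% lower beside the 31.4% of all tested genes. Among the delivery genes, RABAC1, the prenylated RAB acceptor, rose from 19.9 to 38.5 FPKM (0.95 ± 0.34, q = 0.0236 in the authors' deposited table). GDI2, a widely expressed GDP dissociation inhibitor, fell from 266 to 158 FPKM (-0.76 ± 0.21, q = 0.00315 in the authors' deposited table); its adjusted p against the median gene was 0.834. CHML, one of the escort proteins for prenylation, fell from 24.5 to 11.3 FPKM, and RABGGTB, a subunit of the prenylating enzyme, from 39.8 to 21.5 FPKM, by the calls of the authors' deposited table. CHM (-0.63) and RABGGTA (-0.15) were not called.

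Of the effectors of secretory RAB proteins described here, 1 rose and 2 fell, beside others that were not called. This is not a count of all such effectors. MYO5A (-0.77), DMXL2 (-0.83) and WDR7 (-0.80), also on the list of effectors, fell in the authors' deposited table (q = 0.0382, 0.0101 and 0.0487). SYTL4 (granuphilin), which binds RAB27 and RAB3 proteins on granules, rose from 0.460 to 2.34 FPKM (2.35 ± 0.71, q = 0.00610 in the authors' deposited table), and passed the limit of 1 FPKM only through differentiated cells. RPH3A (rabphilin), an effector of RAB3A, fell from 4.87 to 0.263 FPKM (-4.21 ± 0.91, q = 6.37e-05 in the authors' deposited table). UNC13D, a RAB27 effector that primes granules, fell from 10.7 to 3.50 FPKM (-1.61 ± 0.34, q = 4.47e-05 in the authors' deposited table). Against the median gene, both RPH3A and UNC13D were also lower (adjusted p = 0.00195 and 0.0397). RPH3A passed the limit of 1 FPKM only through undifferentiated cells. RIMS1 and RIMS2, RAB3 effectors of the presynaptic active zone, and MYRIP, a RAB27 effector, were not called, with fold changes of -0.052, 0.028 and -0.16; they are named after their values were seen. OPTN, a RAB8 effector and autophagy receptor, rose from 3.51 to 11.1 FPKM (1.66 ± 0.32, q = 6.19e-06 in the authors' deposited table). RAB3IP, an exchange factor for RAB8, stood at 2.50 and 3.87 FPKM (0.63 ± 0.32) and lay above the median gene (adjusted p = 0.00195) with q = 0.115 in the authors' deposited table. MADD, the exchange factor for RAB3, stood at 6.28 and 5.42 FPKM, with no call. RAB3GAP1 and RAB3GAP2 form a complex that inactivates RAB3 and is also an exchange factor for RAB18, under which role both are counted here. RAB3GAP1 stood at 12.1 and 8.30 FPKM with no call, and RAB3GAP2, named after its values were seen, fell from 16.2 to 10.0 FPKM (-0.69 ± 0.24, q = 0.0179 in the authors' deposited table).

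The other regulators named here act on endosomal RAB proteins or switch RAB proteins on or off. RBSN (rabenosyn, listed as ZFYVE20), an effector of RAB4 and RAB5, fell from 8.15 to 3.41 FPKM (-1.26 ± 0.30, q = 0.000285 in the authors' deposited table). APPL2, also an effector of RAB5, fell from 9.24 to 4.44 FPKM (-1.06 ± 0.37, q = 0.0179 in the authors' deposited table). The GTPase-activating proteins TBC1D2B (-1.35), TBC1D4 (-1.22) and USP6NL (-1.20) fell in the authors' deposited table, and none of the 3 was called against the median gene (adjusted p from 0.321 to 0.342). DENND2A (0.84 ± 0.36), SGSM3 (0.72 ± 0.35) and TBC1D30 (0.68 ± 0.42) were not called against 0 and lay above the median gene, with adjusted p of 0.00154, 0.00293 and 0.0250. TBC1D30, at 0.882 and 1.41 FPKM, passed the limit of 1 FPKM only through differentiated cells. LRRK2, the kinase that phosphorylates several RAB proteins, was at 0.141 and 0.0880 FPKM and was not tested.

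**Figure D4:**
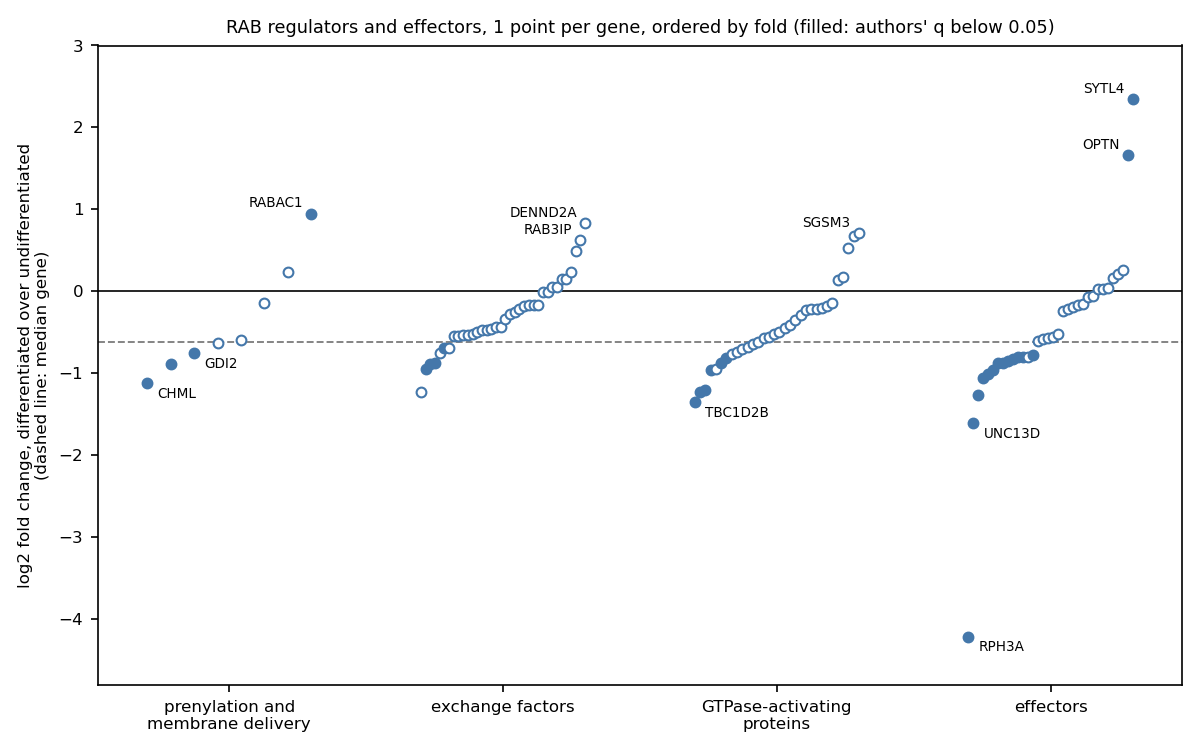
Log2 fold change of the 110 RAB regulators and effectors with a mean of 1 FPKM or more, 1 point per gene, in 4 role groups and ordered within each; filled points have q below 0.05 in the authors' deposited table, and the dashed line is the median gene at -0.62. Of the filled points 3 lie above 0 (RABAC1, OPTN and SYTL4) and 26 below it, with RPH3A lowest at -4.21.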

How the data were processed

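RNA from 4 libraries was sequenced after removal of ribosomal RNA, per the labels' protocols. TopHat2 2.0.8, Cufflinks 2.0.2 and build hg19 are named in the submitters' processing notes; for the annotation, the scaling between groups and the pooling of libraries, the method is not given in the sources used here. Per the file headers, the authors deposited for each gene an FPKM in each group and the log2 fold change, statistic, p-value and q-value. In 23 failed rows the deposited log2 fold did not match its FPKM values (tolerance 0.01); they and 28 rows with a date for a name were left out of all tests. Depth is unknown, so no counting interval is given.

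The planned limma test needs values per library and was not run. Log2 fold changes were computed from the FPKM values with no pseudocount. The implied SE is the deposited log2 fold change divided by its statistic, without sign, and 95% intervals are 1.96 SE wide on each side. For the test against the median gene, the median of 11169 genes was taken from each fold change, the remainder was divided by the SE, and two-sided normal p-values received Benjamini-Hochberg adjustment over those genes. The authors' variance model carries over to it. Members were named by rule: those called by either test, the most abundant of each step and its highest and lowest fold. Of the regulators, the rule took the called ones, at most 8 rises and 8 falls, and a fixed set, of which 1 gene is not reported here. Other members are given as counts or single values. Members, steps and lists were chosen with earlier results of these data known. Promoters came from RefSeq (GRCh38.p14) and transcripts from GENCODE release 29, and listed hg19 starts were raised by 1. Protein sequences were not used here. The software was Python 3.11.15 with scipy 1.17.1, pandas 2.3.3, numpy 2.4.6 and, for plots, matplotlib 3.10.9.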

Additional observations from a re-analysis of the deposited data

How the results depend on the processing

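No paired analysis was possible because the table holds 1 value per group, and for the same reason no replicate could be left out. Alternatives covered the filter, the threshold, shared loci, the pseudocount, the scaling and the choice of step. A list median counts as moved when it shifted by more than the median implied SE of its members. With a mean of at least 5 FPKM, 1 RAB gene was called higher, in place of 2, and 5 regulators lay above the median gene, in place of 9. At a threshold of 0.01, 2 RAB genes were called lower, in place of 8, and at 0.1, 1 lay below the median gene, in place of 0. The median of all RAB genes, -0.24, was 0.54 with equal sums, 0.35 with quantile normalization and 0.38 with the median gene at 0; these scalings shift the median of all genes by 0.78, 0.58 and 0.62. Less the median gene, the secretion median of 1.43 became 1.99 at 5 FPKM, 1.85 without shared loci, 1.00 with log2(value + 1) and 0.81 with genes at their second step. It became 1.85 with the filter at 0.9 FPKM, chosen after seeing the data so that RAB3B enters; then 3 RAB genes were higher and 5 above the median gene. The early endosome median of 0.19 became 0.50 at 5 FPKM. The recycling endosome median of 0.36 turned to -0.062 at 5 FPKM and -0.17 without shared loci. The late endosome median, 0.13, was -0.16 at 5 FPKM, a change of sign within the SE. The cause of these changes was not tested, although a stricter filter leaves fewer genes in a list. Against the median of genes of similar expression (10 bins), 5 RAB genes lay above it, RAB6A among them.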
